A study of Mus musculus with 33 samples.

Results

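The mammary epithelium makes its own set of antimicrobial and acute-phase proteins, and 10 of the genes that encode them were followed in this RNAseq series. They were Lcn2, Saa1, Saa2, Saa3, S100a8, S100a9, Ltf, Pigr, Cp and Wfdc18, taken by gene symbol as 10 of the 55487 gene rows of the count table. All 10 had at least 10 reads summed over the 33 libraries and entered the tests with 36527 genes in all. The libraries came from 33 mice, with 1 library per mouse.

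All mice, controls included, carried MMTV-Cre, a Cre recombinase under the mouse mammary tumor virus promoter that acts in the mammary epithelium, and the ROSA mTmG reporter, which Cre switches from red mTd to green GFP. Tumor mice also carried PyMT, the polyoma middle T oncogene under the same promoter, and tumor-free mice did not. PTHrP WT mice were Pthrp wt/wt. PTHrP KO mice were Pthrp flox/flox, so that Pthlh, the gene of parathyroid hormone-related peptide, could be removed only where Cre was active. The PyMT and Cre lines were of pure FVB background. The floxed line came from a different strain and was backcrossed to FVB, and the paper does not give the background of the reporter line. GFP+ cells were sorted after dissociation and a short culture in medium with serum, so the values describe cultured cells and not cells taken straight from tissue. The WT tumors were those of 3 mice at week 6, 3 at week 8, 3 at week 10 and 1 at week 12. The KO tumors were those of 3 mice at week 8, 3 at week 10 and 3 at week 12. Glands without tumors were taken from 2 mice at each age, from week 6 to week 12 in WT and from week 8 to week 12 in KO. Hyperplasia, adenoma and carcinoma stood for weeks 6, 8 and 10 in WT tumors and for weeks 8, 10 and 12 in KO tumors.

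As background, epithelial surfaces defend themselves by starving, binding or trapping microbes. Lcn2 (lipocalin 2) binds the iron carriers of bacteria, Ltf (lactoferrin) binds iron itself in milk and mucosal fluids, and Cp (ceruloplasmin) carries copper and oxidizes iron. Saa1, Saa2 and Saa3 encode serum amyloid A, acute-phase apolipoproteins of which Saa1 and Saa2 are best known from liver and Saa3 from other tissues and macrophages. S100a8 and S100a9 encode the subunits of calprotectin, a metal-binding dimer best known from neutrophils. Pigr (polymeric immunoglobulin receptor) carries IgA across the epithelium into milk, and Wfdc18 is a small secreted protein of the whey acidic protein family that is made in the mammary gland. Inflammatory cytokines raise many acute-phase genes through the transcription factors NF-kappaB, C/EBP and STAT3.

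The genes lie at 7 places in the genome (GRCm38). The 3 Saa genes are neighbors on chromosome 7: Saa3 at 46711998-46715700 and Saa1 at 46740497-46742980, both on the minus strand, and Saa2 at 46751790-46754313 on the plus strand, with 8809 bases between Saa1 and Saa2 and 24796 between Saa3 and Saa1. On chromosome 3, S100a8 (90668978-90670035, plus strand) and S100a9 (90692632-90695721, minus strand) are 22596 bases apart, and Cp (19957054-20009145, plus strand) overlaps Hps3 on the other strand. The remaining genes are Lcn2 on chromosome 2 (32384633-32388252, minus strand), Ltf on chromosome 9 (111019271-111042767, plus strand), Pigr on chromosome 1 (130826684-130852249, plus strand) and Wfdc18 on chromosome 11 (83709015-83711348, plus strand). The gene names are those of the count table. RefSeq lists Saa1 and Saa2 under each other's names as synonyms.

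The bases before the genes are shown for Saa1, Saa2, Saa3, S100a8 and S100a9, since these neighbors differed in level in the tumors described later. From the 250 bases before each RefSeq start, those outside the gene as GENCODE draws it are printed. They are written 5′ to 3′ on the strand of the gene (GRCm38.p6, RefSeq), with matches to a short C/EBP motif, TTNNGNAA on either strand, in capitals.
Saa1 promoter, chr7:46742981-46743230, minus strand: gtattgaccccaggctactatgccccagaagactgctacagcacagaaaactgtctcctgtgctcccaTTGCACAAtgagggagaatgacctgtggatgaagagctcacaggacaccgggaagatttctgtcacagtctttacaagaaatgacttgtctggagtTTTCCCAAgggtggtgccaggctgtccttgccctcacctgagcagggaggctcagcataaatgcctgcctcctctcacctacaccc
Saa2 promoter, chr7:46751583-46751789, plus strand: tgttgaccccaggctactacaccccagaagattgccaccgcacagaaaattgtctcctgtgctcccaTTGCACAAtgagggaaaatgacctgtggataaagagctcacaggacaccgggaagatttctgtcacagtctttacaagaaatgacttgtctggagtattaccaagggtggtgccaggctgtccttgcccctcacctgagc
Saa3 promoter, chr7:46715701-46715926, minus strand: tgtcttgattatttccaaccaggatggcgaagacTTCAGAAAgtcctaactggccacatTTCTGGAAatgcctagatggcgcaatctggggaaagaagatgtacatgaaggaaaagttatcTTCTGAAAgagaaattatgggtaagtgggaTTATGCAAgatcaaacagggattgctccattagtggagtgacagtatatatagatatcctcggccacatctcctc
S100a8 promoter, chr3:90668821-90668977, plus strand: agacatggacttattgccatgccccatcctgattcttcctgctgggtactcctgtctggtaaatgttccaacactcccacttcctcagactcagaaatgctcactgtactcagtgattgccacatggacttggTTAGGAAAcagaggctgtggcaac
S100a9 promoter, chr3:90695722-90695971, minus strand: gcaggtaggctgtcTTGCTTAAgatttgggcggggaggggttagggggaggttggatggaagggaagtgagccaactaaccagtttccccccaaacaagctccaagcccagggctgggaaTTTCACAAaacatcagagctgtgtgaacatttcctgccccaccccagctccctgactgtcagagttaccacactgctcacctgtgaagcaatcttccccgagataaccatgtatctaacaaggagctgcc
Over the aligned bases of the full 250-base windows, the promoters of Saa1 and Saa2 were 95.6% identical, with a longest identical run of 65 bases, those of Saa1 and Saa3 59.4% and those of S100a8 and S100a9 55.7%. The C/EBP letters occurred once or more before Lcn2, Saa1, Saa2, Saa3, S100a8, S100a9, Ltf and Cp, and not before Pigr or Wfdc18. Saa3 had 4 matches. The same letters occur in 36.8% of 32851 promoters of this length, so a match is common. A kappaB motif, GGGANNNNCC on either strand, occurred before Pigr and in 1 of the 2 promoters listed for Cp, beside 17.6% of promoters. A STAT motif, TTCNNNGAA, occurred before none of the 10 genes, beside 7.02%. No match of 1 motif overlapped that of another. A match describes letters in this window only.

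Counted reads per library ranged from 28419983 to 130981596 (median 46351179). The rRNA share of the counted reads moved with genotype. Its median was 0.0116% among WT glands against 6.2% among KO glands, and 0.0499% among WT tumors against 0.952% among KO tumors. Pthlh ranged from 1.46 to 6.67 CPM (counts per 1000000 reads of a library scaled for composition) in WT tumors and from 1.35 to 2.29 CPM in KO tumors, and it did not pass the test in tumors (log2 fold change 0.59, SE 0.22, adjusted p = 0.229, edgeR) or in glands (log2 fold change 0.50, SE 0.26, adjusted p = 0.455, edgeR). The loxP sites lie at the fourth exon of Pthlh, and these counts are summed over the whole gene, so they do not show reads of that exon apart. According to the paper, reads on that exon were absent from all KO samples. Luminal markers (10 genes, led by Krt8 and Krt18) summed to between 5480 and 13849 CPM in every library, so the defining markers of the labelled epithelium were present. Neutrophil markers, a list of 10 genes, summed to 0.176 to 1.66 CPM in tumors and 0.196 to 3.17 CPM in glands, with Ly6g at 12 reads, Ngp at 17 reads, Retnlg at 4 reads and, at the other end, Mmp8 at 845 reads and Cd177 at 280 reads in all 33 libraries together. Hepatocyte markers summed to 0.106 to 1.37 CPM. Fibroblast markers stood apart in 2 WT glands, week 8 replicate 2 (764 CPM) and week 6 replicate 2 (235 CPM), beside 11.2 to 143 CPM in the other 31 libraries.

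Of the 10 genes, 9 rose in WT tumors over WT glands and 9 rose in KO tumors over KO glands, averaged over the 3 tumor stages of each genotype, and 0 were lower. The gene that was not called was S100a9 in both. A gene counted as called when edgeR's quasi-likelihood test gave a change of more than 1.5-fold with p, adjusted by Benjamini-Hochberg over all 36527 genes, below 0.1. By that rule 6.21% of all genes rose and 9.53% fell with tumors of WT mice, and with those of KO mice 5.16% rose and 5.44% fell. The median log2 fold change of the 10 genes was 3.42 in WT and 3.66 in KO, beside 0.03 and 0.09 over all genes. Both counts of 9 held in each of the 15 fits that left out 1 library of that comparison.

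The levels overlapped little. For 6 of the 10 genes (Lcn2, Saa1, Saa2, S100a8, Pigr and Cp) all 19 tumors lay above all 14 glands, which was so for 0.534% of all genes. Within WT mice, all 10 tumors lay above all 8 glands for 8 of the 10 genes, beside 1.35% of all genes, the exceptions being Saa3 and S100a9. Within KO mice, all 9 tumors lay above all 6 glands for 8 of the 10 genes, beside 1.99%, the exceptions being Ltf and S100a9.

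**Figure D1:**
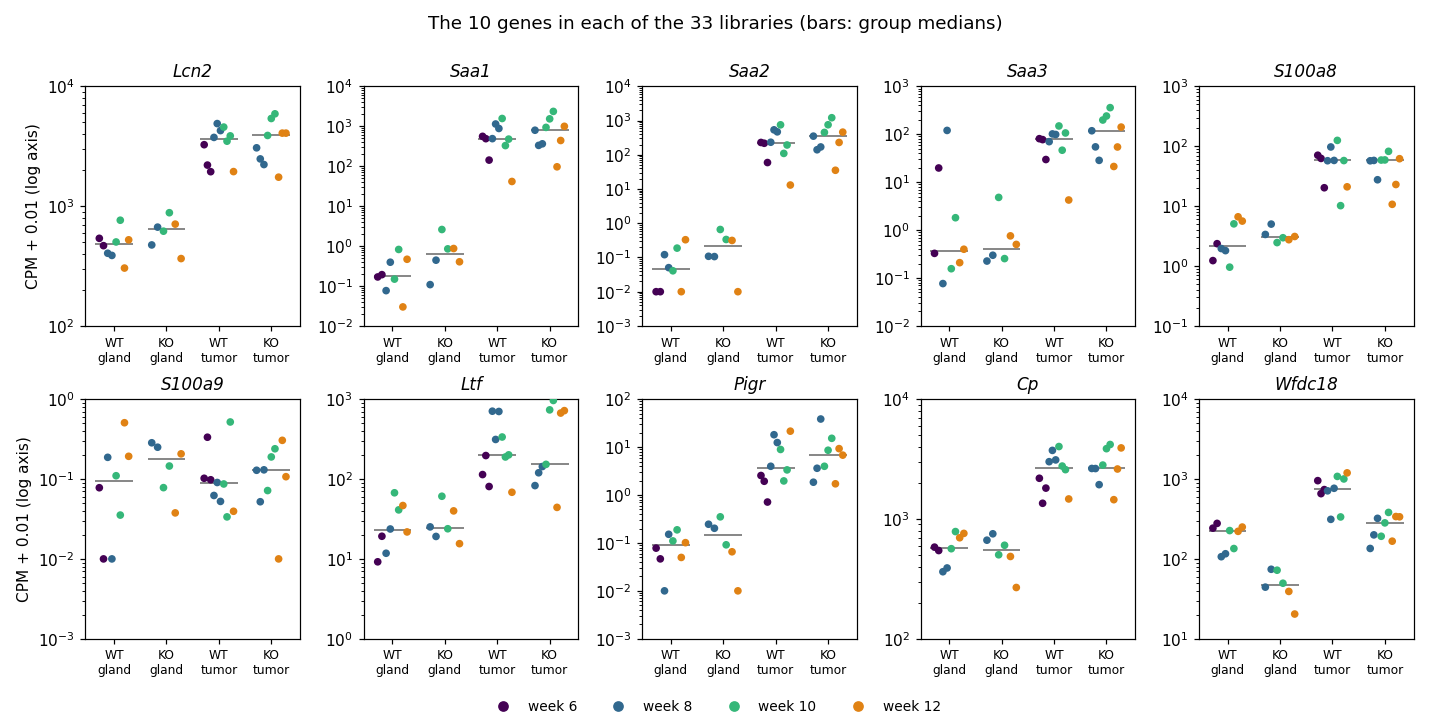
Each panel shows 1 gene, each point 1 library, in CPM plus 0.01 on a log axis, by genotype and tissue, with the color giving the age and a bar at the group median. Saa1 and Saa2 show the widest gap between glands and tumors, S100a9 shows none, 1 WT gland of week 8 holds Saa3 at 120 CPM, and Wfdc18 is lower in both KO groups.

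Basal and myoepithelial markers moved with this comparison. All 10 of them, led by Acta2, fell in the tumors of both genotypes, and their sum ranged from 1006 to 5420 CPM in tumors and from 5311 to 20766 CPM in glands. Of 10 luminal progenitor markers, 7 rose and 1 fell in WT tumors and 7 rose and 3 fell in KO tumors, with sums of 791 to 2523 CPM in tumors and 519 to 822 CPM in glands. That list holds Elf5, Cd14 and Lbp, which also appear in the lists given later. Of 10 endothelial markers, 7 fell in WT tumors (median log2 fold change -1.91) and 1 in KO tumors (median -0.92), and of 10 fibroblast markers, 7 fell in WT tumors (median -1.80) and 1 in KO tumors (median 0.38). The fibroblast sum had a median of 46.9 CPM in WT glands, 2 of which stood at 764 and 235 CPM, and of 33.7 CPM in WT tumors. Of 10 macrophage markers, 3 fell in WT tumors and 2 rose in KO tumors, and 3 of 10 adipocyte markers fell in WT tumors and 0 in KO tumors. Of 9 neutrophil markers tested, 1 rose and 2 fell in WT tumors (median 0.29), and 2 rose and 0 fell in KO tumors (median 1.91). Cd177 rose in both genotypes, by 3.92 in WT and 4.71 in KO, Camp rose by 4.05 in KO, and Mmp8 and Csf3r fell in WT. The part of these shifts in the results was not tested. In sorted bulk cells, fewer cells of a type and less RNA per cell cannot be told apart.

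The largest fold changes of the 10 genes were those of Saa1 and Saa2. Saa1 was at 0.0199, 0.170 and 0.812 CPM (lowest, median and highest) in 8 WT glands and at 0.0982, 0.637 and 2.59 CPM in 6 KO glands. In tumors it was at 41.5, 491 and 1569 CPM in 10 WT mice and at 96.7, 798 and 2363 CPM in 9 KO mice. The lowest tumor, at 41.5 CPM, was thus above the highest gland, at 2.59 CPM. The log2 fold change was 11.33 in WT (SE 0.78, adjusted p = 3.46e-10) and 10.23 in KO (SE 0.75, adjusted p = 2.99e-09), and the ratio of mean CPM was 2329 and 1006. In reads, the 8 WT glands held 110 reads of Saa1 together and the 10 WT tumors 353919.

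Saa2 followed Saa1. It was at 0 CPM in 3 WT glands and 1 KO gland, at most 0.32 CPM in WT glands and 0.647 CPM in KO glands, and at 13.1 to 753 CPM (median 224) in WT tumors and 35.3 to 1214 CPM (median 351) in KO tumors. With glands of 3 reads or fewer set to 3 reads each, Saa2 was at least 3719-fold higher in WT tumors and at least 1522-fold higher in KO tumors. In each tumor Saa2 made up 24 to 34.7% of the reads of Saa1 and Saa2 in WT (median 30.1%) and 26.8 to 34.3% in KO (median 31.8%), a narrow band although the sum of both varied widely. The transcripts of Saa1 and Saa2 were 94.4% identical over 606 aligned bases. They shared 13.2% of their 50-base windows and no 100-base window, so some reads could have been given to either gene or to neither, and the split between them is uncertain to that extent. Saa1 and Saa3 were 74.5% identical and shared 1.61% of 50-base windows.

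Saa3, the serum amyloid A gene best known outside the liver, was at 4.24, 79.2 and 149 CPM in WT tumors and at 21.3, 118 and 360 CPM in KO tumors. In 6 KO glands it was at 0.216, 0.391 and 4.8 CPM, below all KO tumors. In the 8 WT glands it was at 0.317 and 19.8 CPM at week 6, 0.0665 and 120 CPM at week 8, 0.146 and 1.8 CPM at week 10, and 0.199 and 0.389 CPM at week 12. The second gland of week 8 thus exceeded the median WT tumor, while 6 of the 8 WT glands were below 2 CPM. The log2 fold change was 3.38 in WT (SE 0.84, adjusted p = 0.0049) and 7.23 in KO (SE 1.08, adjusted p = 2.47e-05).

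The 2 WT glands high in Saa3 were the 2 with the highest fibroblast marker sums. These sums were 764 CPM in the gland with 120 CPM of Saa3 and 235 CPM in the one with 19.8 CPM, and macrophage markers stood at 49.3 and 22.4 CPM there beside 6.314 to 18.3 CPM in the other 31 libraries. Over all 14 glands, log2 Saa3 and the log2 fibroblast sum had a Pearson r of 0.87 (permutation p = 0.00035, adjusted p = 0.0022) and a Spearman rho of 0.53 (permutation p = 0.057, adjusted p = 0.16). Without the 2 glands farthest from the median of Saa3, r was 0.56, so much of the relation rests on them. Taken by genotype, r was 0.90 over 8 WT glands and 0.76 over 6 KO glands. For macrophage markers, r was 0.80 (rho 0.44, permutation p = 0.0029 and 0.12, adjusted p = 0.013 and 0.29) and fell to 0.10 without the 2 glands. Lcn2, Saa1 and Cp did not follow Saa3 in these 2 glands. In the week 8 gland Lcn2 was at 388 CPM, Saa1 at 0.384 CPM and Cp at 390 CPM, and in the week 6 gland they were at 468, 0.182 and 545 CPM, all within the range of the other WT glands. In a fit without these 2 glands, chosen after the data were seen, the log2 fold change of Saa3 in WT was 8.30 in place of 3.38. Since they were also the 2 WT glands with the most Saa3, leaving them out had to raise this value, and it is given as a description.

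**Figure D2:**
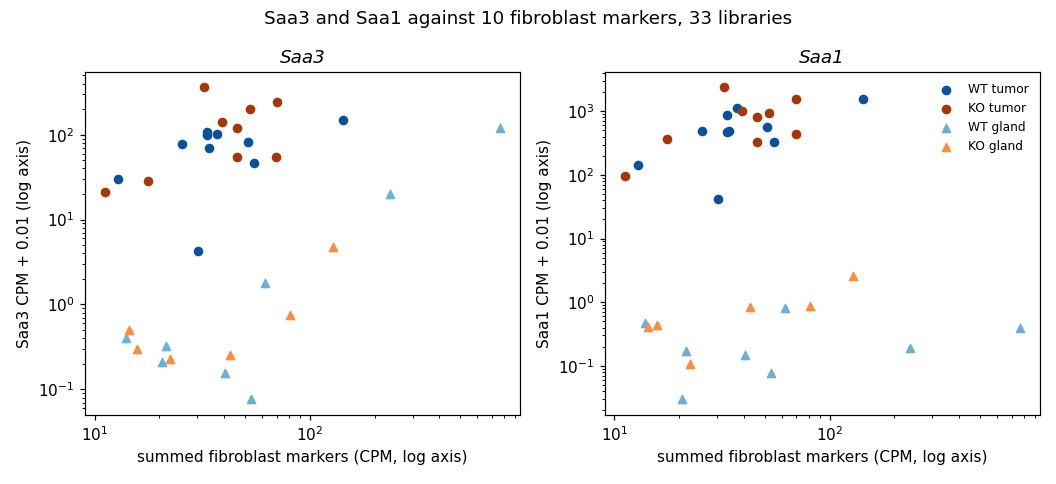
Each point is 1 library, with the summed CPM of 10 fibroblast markers on the x axis and Saa3 CPM on the y axis, both log, colored by tissue and genotype. The WT glands of 235 and 764 CPM on the x axis are the ones whose Saa3 reaches 19.8 and 120 CPM, and the lowest tumor, at 4.24 CPM of Saa3, has a fibroblast sum of 30.2 CPM.

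Lcn2, the siderophore-binding lipocalin, rose in both genotypes. It was at 304, 485 and 763 CPM in WT glands, at 365, 643 and 881 CPM in KO glands, at 1940, 3618 and 4891 CPM in WT tumors and at 1746, 3893 and 5901 CPM in KO tumors. Tumors and glands did not overlap. The log2 fold change was 2.80 in WT (SE 0.21, adjusted p = 8.58e-10) and 2.52 in KO (SE 0.20, adjusted p = 8.25e-09), a ratio of mean CPM of 7.01 and 5.90.

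Cp, the copper ferroxidase, rose by a similar factor. It was at 363 to 785 CPM (median 573) in WT glands and 268 to 752 CPM (median 553) in KO glands, against 1353 to 4026 CPM (median 2675) in WT tumors and 1450 to 4187 CPM (median 2641) in KO tumors. Its log2 fold change was 2.33 in WT (SE 0.19, adjusted p = 1.74e-09) and 2.43 in KO (SE 0.19, adjusted p = 5.4e-09). Reads of Hps3, on the other strand, could enter these counts only if strand was not used in counting, a setting not given in the sources used here.

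Ltf, the iron-binding milk protein, spread widely between tumors of the same age. In WT tumors it was at 114, 197 and 80.7 CPM at week 6, 708, 313 and 702 CPM at week 8, 336, 189 and 201 CPM at week 10 and 68.3 CPM at week 12. In KO tumors it was at 82.8, 120 and 143 CPM at week 8, 153, 736 and 965 CPM at week 10 and 44.2, 671 and 720 CPM at week 12. WT glands ranged from 9.19 to 67.3 CPM and KO glands from 15.5 to 60.9 CPM, so that 1 KO tumor of week 12 lay within the range of the KO glands. The log2 fold change was 3.46 in WT (SE 0.50, adjusted p = 8.97e-06) and 3.45 in KO (SE 0.50, adjusted p = 1.54e-05).

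S100a8 rose in tumors, and a change of S100a9 was not detectable. S100a8 was at 0.947, 2.15 and 6.63 CPM in WT glands and at 2.45, 3.03 and 5 CPM in KO glands, and at 10.2, 57.8 and 125 CPM in WT tumors and 10.7, 58 and 82.3 CPM in KO tumors. All 19 tumors were above all 14 glands. Its log2 fold change was 4.85 in WT (SE 0.51, adjusted p = 1.04e-07) and 3.87 in KO (SE 0.49, adjusted p = 2.93e-06).

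S100a9, the partner subunit, was near the limit of detection everywhere. It was at 0 to 0.498 CPM in WT glands, 0.0277 to 0.275 CPM in KO glands, 0.0236 to 0.509 CPM in WT tumors and 0 to 0.296 CPM in KO tumors, with at most 25 reads in any library. Its log2 fold change was 1.09 in WT (SE 0.76, adjusted p = 0.377) and -0.18 in KO (SE 0.75, adjusted p = 1.0), and the groups overlapped, so a difference was not detectable at this depth. In the 10 WT tumors together there were 74 reads of S100a9 and 35798 of S100a8, and in the 9 KO tumors 56 and 23041.

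As a share of the reads of both genes, S100a9 made up 0.061 to 0.874% in WT tumors (median 0.135%) and 0 to 1.27% in KO tumors (median 0.207%), and 0 to 9.56% in WT glands (median 4.21%) and 1.0 to 7.57% in KO glands (median 4.49%). In the 1 KO tumor without a read of S100a9 (0 of 735 reads), the 95% exact binomial interval reached up to 0.501%. Intervals cover counting error only. The transcripts of S100a8 and S100a9 were 59.6% identical and shared no 50-base window, so a read of that length would match only 1 of them. Neutrophils are known to carry both genes. Over the 33 libraries together, their markers Ly6g and Elane had 12 and 30 reads, Camp 62, Cd177 280 and Mmp8 845. As given above, Cd177 rose in the tumors of both genotypes and Camp in KO tumors, and Mmp8 and Csf3r fell in WT tumors. Of the 9 markers tested, 1 rose and 2 fell in WT tumors, and 2 rose and 0 fell in KO tumors. In tumors, log2 S100a8 and the log2 neutrophil marker sum had r = 0.54 and rho = 0.53 (permutation p = 0.017 and 0.023, adjusted p = 0.061 and 0.09), with r = 0.33 without the 2 farthest tumors. The part of neutrophils in these levels was not tested.

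**Figure D3:**
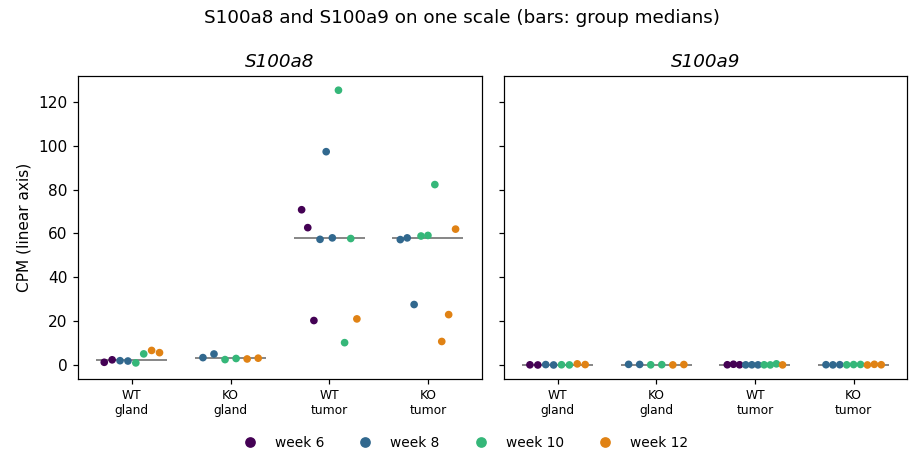
S100a8 (left) and S100a9 (right) are shown on the same linear CPM axis, each point 1 library, colored by age, with bars at group medians. S100a8 reaches 125 CPM in tumors while S100a9 stays under 0.51 CPM in every library.

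Pigr, the carrier of IgA, was low in level and rose in both genotypes. It had at most 13 reads in any gland (0 to 0.178 CPM in WT and 0 to 0.341 CPM in KO) and was at 0.704, 3.66 and 21.5 CPM in WT tumors and 1.71, 6.8 and 38.6 CPM in KO tumors. Tumors and glands did not overlap. With glands at 3 reads or fewer set to 3 reads, the ratio of mean CPM was at least 59.1 in WT and at least 55.3 in KO. The log2 fold change was 5.83 in WT (SE 0.79, adjusted p = 4.25e-06) and 6.29 in KO (SE 0.82, adjusted p = 4.21e-06). Leaving out 1 library, it ran from 5.52 to 7.50 in WT and from 5.48 to 7.63 in KO. The tumor with the highest value was KO week 8 replicate 3, with the next KO tumor at 15.3 CPM, so the KO mean rests in part on it. The WT tumor of week 12, lowest of the WT tumors in Saa1, Saa2, Saa3 and Ltf, had the highest Pigr of the WT tumors. In tumors, Pigr and the neutrophil marker sum had r = 0.75 and rho = 0.73 (permutation p = 0.00013 and 0.00057, adjusted p = 0.001 and 0.0033), with r = 0.80 without the 2 farthest tumors, 0.94 in 10 WT tumors and 0.46 in 9 KO tumors. The neutrophil sum was at most 1.66 CPM in any tumor, and its part in the Pigr values was not tested.

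Per kilobase of their main transcript, which allows levels of different genes to be compared, the median WT tumor order was Lcn2 (3954 CPM per kilobase), Wfdc18 (1444), Saa1 (806), Cp (654), Saa2 (369), Saa3 (143), S100a8 (119), Ltf (72.5), Pigr (0.95) and S100a9 (0.154). In KO tumors the order was Lcn2 (4254), Saa1 (1310), Cp (645), Saa2 (580), Wfdc18 (542), Saa3 (214), S100a8 (119), Ltf (55.7), Pigr (1.77) and S100a9 (0.232). Neighbors in both orders overlapped in range, except Ltf and Pigr. In WT glands the order was Lcn2 (530), Wfdc18 (430), Cp (140), Ltf (8.284), S100a8 (4.42), Saa3 (0.635), Saa1 (0.28), S100a9 (0.164), Saa2 (0.0587) and Pigr (0.0207). Saa1 and Saa2 were thus among the 4 lowest of these genes in WT glands and among the 5 highest in tumors. In KO glands Saa1 (1.05) stood above Saa3 (0.704), Saa2 (0.3325), S100a9 (0.325) and Pigr (0.0356). Of Saa1 and Saa2, only Saa2 was among the 4 lowest there.

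The difference was present at every age. In WT mice, 8 of the 10 genes were higher in tumors at week 6 (2.32% of all genes were called higher), 8 at week 8 (3.35%) and 8 at week 10 (2.46%). In KO mice, 8 were higher at week 8 (1.11%), 9 at week 10 (2.57%) and 9 at week 12 (3.19%). Besides S100a9, whose log2 fold changes ran from -1.43 to 2.36, the genes that missed the threshold were Saa3 at WT week 6 (log2 fold change 2.63, adjusted p = 0.371) and WT week 8 (0.58, adjusted p = 0.869), and Ltf at WT week 10 (2.16, adjusted p = 0.144) and KO week 8 (2.38, adjusted p = 0.174). At the first age of each genotype Saa1 was already higher by 11.16 on the log2 scale (SE 1.36) in WT tumors of week 6 and by 11.21 (SE 1.39) in KO tumors of week 8.

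These counts rest on 2 glands per age. Leaving out KO gland week 8 replicate 1 lowered the count at that age from 8 to 2, and leaving out replicate 2 lowered it to 4. The KO count of week 10 fell from 9 to 5 without KO gland week 10 replicate 2, and the WT count of week 6 from 8 to 5 without either of its glands. Fitted with only the 5 libraries of KO week 12, 0 of the 10 genes passed (adjusted p 0.145 to 0.26 for the 9 genes other than S100a9), and neither did any of the 22035 genes tested in that fit. The WT week 8 value of Saa3 turned on its glands. It was 10.36 (adjusted p = 0.0121, edgeR) without replicate 2, the gland of 120 CPM, and -0.42 without replicate 1.

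**Figure D4:**
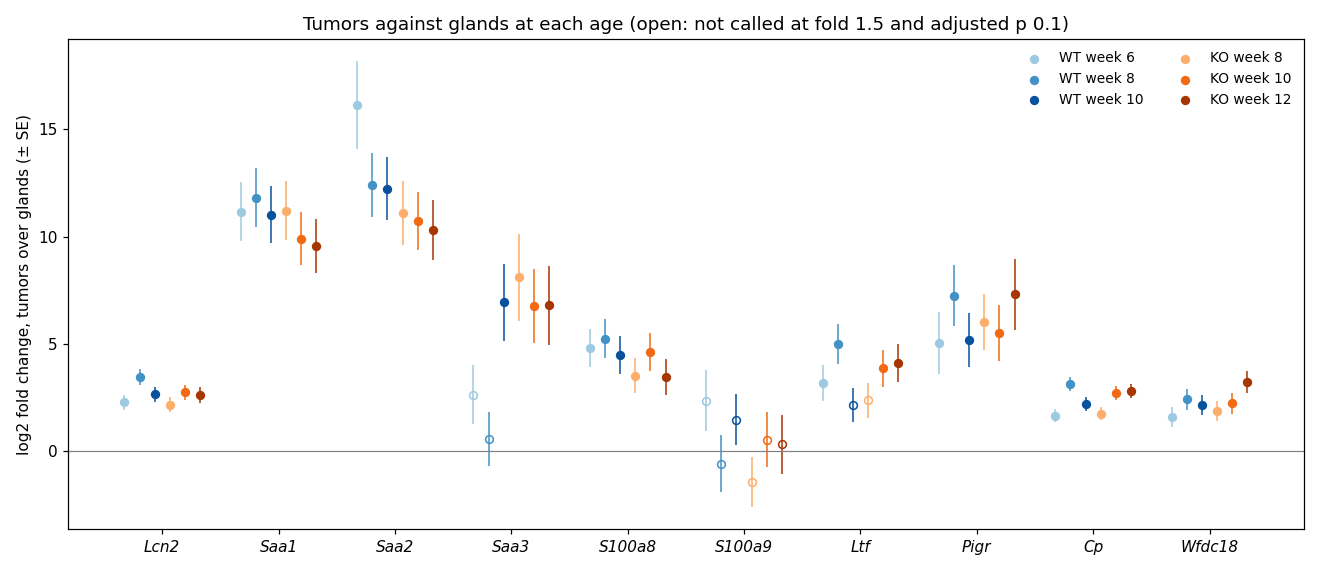
The log2 fold change of tumors over glands of the same age is shown for each gene, with bars of 1 standard error from edgeR, for WT (weeks 6, 8 and 10) and KO (weeks 8, 10 and 12). Lcn2, Cp and Wfdc18 lie between 1.59 and 3.44 at every age, Saa1 and Saa2 at 9.58 or more, and Saa3 in WT at 0.58 at week 8, a value that was 10.36 without the gland of 120 CPM, and at 6.94 at week 10.

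Between WT tumors of week 10 and week 6, 0 of the 10 genes were called by edgeR, beside 0.011% of all genes (4 genes). Over all genes, 3122 had an unadjusted p under 0.05 in edgeR and 253 were called by DESeq2. The log2 fold changes ran from 0.04 (Wfdc18) to 1.44 (Pigr). The value was 0.69 for Lcn2 (SE 0.29, adjusted p = 0.544) and 0.81 for Cp (SE 0.26, adjusted p = 0.482). With no filter on low counts Cp was called (adjusted p = 0.0288, edgeR), beside 440 of 49472 genes. Lcn2 was at 3259, 2202 and 1940 CPM at week 6 and at 4573, 3487 and 3861 CPM at week 10. Between KO tumors of week 12 and week 8, 0 of the 10 genes and 0.0% of all genes were called by edgeR, with 2878 genes at an unadjusted p under 0.05 and 125 genes called by DESeq2. The KO differences ran from -1.31 (Pigr) to 2.05 (Ltf, SE 0.68, adjusted p = 0.587). With no filter Ltf was called (adjusted p = 0.0157, edgeR), beside 176 of 49472 genes. The KO tumors of week 12 held Ltf at 44.2, 671 and 720 CPM. The last 2 of these also stood apart in adipocyte markers, which summed to 11.3 and 9.35 CPM there, beside 0.54 CPM in the first and at most 2.58 CPM in any of the 17 tumors other than these 2, and their part in the Ltf values was not tested. Without KO tumor week 8 replicate 3, the difference of Pigr was 1.125.

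Wfdc18 was the gene that differed between genotypes, in both tissues. In tumors it was at 313, 752 and 1196 CPM in 10 WT mice and at 135, 283 and 382 CPM in 9 KO mice. Averaged over the 3 stages, it was higher in WT tumors by 1.47 on the log2 scale (SE 0.23, adjusted p = 0.00243, edgeR), 729 against 262 CPM in the mean. In glands it was at 107, 224 and 278 CPM in 8 WT mice and at 20.4, 46.9 and 74.2 CPM in 6 KO mice, with no overlap, which held for 0.252% of all genes. Averaged over weeks 8, 10 and 12 it was higher in WT glands by 1.82 (SE 0.29, adjusted p = 0.00421, edgeR), 176 against 50 CPM. By the same rule 1.11% of all genes differed between WT and KO tumors and 0.906% between glands, in either direction.

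By age, Wfdc18 was at 956, 657 and 738 CPM in WT tumors of week 6, 712, 313 and 767 CPM at week 8 and 1080, 335 and 1003 CPM at week 10. In KO tumors it was at 135, 200 and 322 CPM at week 8, 192, 283 and 382 CPM at week 10 and 167, 339 and 337 CPM at week 12. Of the WT tumors 2, 1 of week 8 and 1 of week 10, fell within the range of the KO tumors. In glands it was at 243 and 278 CPM at week 6, 107 and 116 CPM at week 8, 226 and 135 CPM at week 10 and 222 and 251 CPM at week 12 in WT, and at 44.3 and 74.2 CPM at week 8, 72.2 and 49.6 CPM at week 10 and 39.1 and 20.4 CPM at week 12 in KO. In glands WT exceeded KO at each shared age.

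The rRNA share of the libraries also moved with genotype, as given above. With its log10 as a covariate, Wfdc18 was higher in WT by 1.52 in tumors (adjusted p = 0.00515, edgeR) and by 1.91 in glands (adjusted p = 0.0257, edgeR). In 18 and 12 fits that left out 1 library, the difference ran from 1.39 to 1.60 in tumors and from 1.68 to 2.00 in glands, and it was called in all of them.

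**Figure D5:**
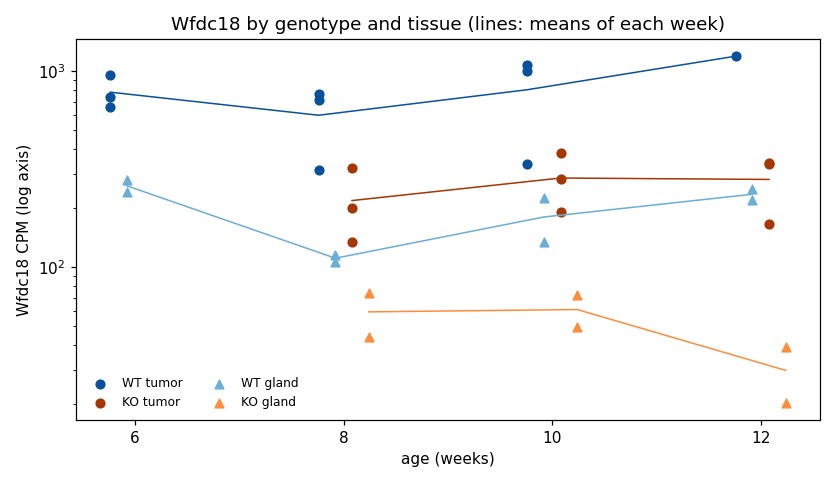
Wfdc18 in CPM on a log axis against the age of the mouse, each point 1 library, for WT and KO tumors and glands. Lines join the means of each week. At every age that both genotypes share, the KO glands lie below the WT glands, and KO tumors reach 382 CPM at most while WT tumors reach 1196 CPM.

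Wfdc18 was also higher in tumors than in glands of the same genotype, by 2.06 in WT (SE 0.27, adjusted p = 3.43e-06) and by 2.45 in KO (SE 0.28, adjusted p = 7.98e-07), a ratio of mean CPM of 3.96 and 5.24. The test of a difference in the tumor effect between genotypes called 0 of the 10 genes, beside 0.14% of all genes (51 genes). At an unadjusted p under 0.05 it gave 1 of the 10, beside 3784 of all 36527 genes, and with DESeq2 1 of the 10 was called, beside 671 of all genes. That gene was Saa3, with a difference of -3.84 (SE 1.22, adjusted p = 0.242 in edgeR and adjusted p = 0.0331 in DESeq2), and with no filter on low counts it was also called (adjusted p = 0.0034, edgeR), beside 732 of 49472 genes. Leaving out 1 library at a time the difference ran from -4.95 to -0.59, passing the threshold without WT gland week 8 replicate 1 (adjusted p = 0.0562). Without the 2 WT glands of highest fibroblast sum, which also held the most Saa3, it was 1.08. The other genes ran up to 2.88 (Saa2, where the WT glands of week 6 had no read), and the value of Saa2 was 0.77 without KO gland week 12 replicate 1.

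The 9 genes other than Wfdc18 were not called between WT and KO tumors, with log2 differences from -1.02 (Pigr, adjusted p = 0.353) to 0.40 (S100a8), nor between glands, where they ran from -1.18 (Saa1) to 1.74 (Saa3). The tumor difference of Pigr was -0.21 without KO tumor week 8 replicate 3, and with no filter on low counts Pigr was called between tumors (adjusted p = 0.0991, edgeR). The gland value of Saa3 was -1.51 without WT gland week 8 replicate 2. No gene of the 10 had all WT tumors above all KO tumors, which held for 0.0219% of all genes. In tumors the ratio of mean CPM, WT over KO, was 0.981 for Lcn2, 0.943 for Cp, 0.773 for Saa1 and 1.28 for S100a8.

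Within the 19 tumors the genes rose and fell together to different degrees. Of 36 pairs among the 9 genes other than S100a9, 20 had a Pearson correlation of log2 CPM with an adjusted p under 0.05 over 105 relations (100000 permutations). None of the 8 pairs with Wfdc18 and none of the 8 with Pigr was among them. Since Wfdc18 differed in level between genotypes, its r is given within each. It ran from -0.30 to 0.21 over 10 WT tumors and from 0.18 to 0.85 over 9 KO tumors, with 0.85 for Pigr, 0.84 for Ltf, 0.54 for Lcn2 and 0.49 for Cp in KO, and these differences between genotypes were not tested. For Pigr with the other genes but Wfdc18, r ran from 0.0015 to 0.44 over all tumors. Without the 2 tumors farthest from the median of Pigr, r with Cp went from 0.33 to 0.78. With Saa1, Saa2 and Lcn2, the 2 tumors left out were those farthest in that other gene. There r went from 0.23 to 0.54, from 0.25 to 0.58 and from 0.36 to 0.11 in that order. Saa1 and Saa2 had r = 0.997 and rho = 0.98 (permutation p = 1e-05 for both, the smallest these permutations can give, adjusted p = 0.00015), and r = 0.99 without the 2 farthest tumors. Saa1 and Saa3 had r = 0.95 and rho = 0.93 (permutation p = 1e-05 for both, adjusted p = 0.00015), and r = 0.91 without the 2 farthest. Lcn2 and Cp had r = 0.92 and rho = 0.89 (permutation p = 1e-05 for both, adjusted p = 0.00015), r = 0.90 without the 2 farthest, and r = 0.94 in WT and 0.92 in KO tumors. Lcn2 and Ltf had r = 0.83 and rho = 0.86 (permutation p = 4e-05 and 1e-05, adjusted p = 0.00042 and 0.00015), with r = 0.76 without the 2 farthest, 0.75 in WT and 0.88 in KO.

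The tumor with the highest level of Lcn2, Saa1, Saa2, Saa3, Ltf and Cp was the same one, KO week 10 replicate 3, at 5901, 2363, 1214, 360, 965 and 4187 CPM in that order. Its sum of luminal progenitor markers, 2523 CPM, was the highest of the tumors, and its fibroblast sum was 32.3 CPM. The tumor with the lowest progenitor sum, KO week 12 replicate 1 at 791 CPM, had the lowest Lcn2, at 1746 CPM. A correlation with the progenitor sum was not computed, and its part in these levels was not tested. Against the fibroblast marker sum of the 19 tumors, r was 0.66 for Lcn2 (rho 0.57, permutation p = 0.0016 and 0.012, adjusted p = 0.0085 and 0.057) and 0.64 for Cp (rho 0.54, permutation p = 0.0029 and 0.018, adjusted p = 0.013 and 0.077), falling to 0.47 and 0.53 without the 2 farthest tumors. It was 0.57 for Saa1 (rho 0.45, permutation p = 0.012 and 0.056, adjusted p = 0.048 and 0.16), with 0.52 without the 2 farthest. The adjusted p of r was over 0.05 for Saa2 (r = 0.54, rho = 0.46, permutation p = 0.017 and 0.048, adjusted p = 0.061 and 0.15), Saa3 (r = 0.48, rho = 0.48, permutation p = 0.039 and 0.037, adjusted p = 0.13 and 0.12) and Ltf (r = 0.44, rho = 0.36, permutation p = 0.059 and 0.13, adjusted p = 0.18 and 0.31). Without the 2 farthest tumors r was 0.49 for Saa2, 0.70 for Saa3 and 0.36 for Ltf. In the 14 glands, where Saa2 and Pigr were too low to be used, 1 of 21 pairs passed, Lcn2 with Saa1 (r = 0.69, rho = 0.73, permutation p = 0.0068 and 0.0045, adjusted p = 0.029 and 0.022), with r = 0.56 without the 2 farthest glands.

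Over all 33 libraries, genes with a mean of at least 1 CPM (13324 genes) were ranked by Pearson r of log2 CPM with each of the 10. Tumors and glands form separate clusters, so this r measures likeness of pattern only, and no p is given. Most like Lcn2 were Saa1 (r = 0.979), Saa2 (0.979) and Csn3 (0.969), the gene of kappa-casein. Most like Saa1 were Saa2 (0.995), Lcn2 (0.979) and Csn3 (0.976). Most like Cp were Rin2 (0.980), Lcn2 (0.965) and Scube1 (0.960). Most like S100a8 were Saa2 (0.945), Scd1 (0.944), a fatty acid desaturase, and Saa1 (0.937). Most like Pigr were Slc5a8 (0.955), Lalba (0.955), the milk protein alpha-lactalbumin, and Rasal1 (0.943). Saa3 was most like Bnip3l (0.911), Ttc39a (0.909) and Lrg1 (0.908), and Ltf most like Muc15 (0.922), Plin5 (0.920) and Ccrl2 (0.919). Wfdc18 had its nearest genes in Zfp68 (0.837), Nat8f4 (0.831) and Grtp1 (0.827). For S100a9, itself under 1 CPM, no gene was above 0.58.

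Other acute-phase genes moved in both directions. Of 20 tested, 7 rose and 3 fell in WT tumors and 8 rose and 1 fell in KO tumors, with a median log2 fold change of 0.69 and 0.80, beside 0.03 and 0.09 over all genes. For these counts and those of the lists that follow, the background over all genes was 6.21% higher and 9.53% lower in WT tumors, and 5.16% higher and 5.44% lower in KO tumors. Orm2 and Orm1, which encode orosomucoids, rose by 6.22 (SE 0.48) and 5.80 (SE 0.48) in WT and by 5.08 and 4.60 in KO. Lrg1, a leucine-rich plasma glycoprotein, rose by 4.48 (SE 0.60) in WT and 5.57 (SE 0.67) in KO. Serpina3n, a protease inhibitor, fell by 3.12 (SE 0.58) in WT and fell by 2.13 (SE 0.57) in KO, and Il1rn, the interleukin 1 receptor antagonist, fell by 1.64 in WT and was at -0.33 in KO (adjusted p = 0.666, edgeR). Hpx (hemopexin) fell by 1.00 in WT. Apcs had too few reads to be tested.

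Among 21 other antimicrobial and mucosal genes, 9 rose and 5 fell in WT and 12 rose and 3 fell in KO, with medians of 1.24 and 1.54. Lalba, from a median of 0.0202 CPM in WT glands to 4.45 CPM in WT tumors, rose by 7.63 (SE 0.98) in WT and by 9.49 (SE 1.12) in KO. Muc15, a membrane mucin, rose by 3.06 (SE 0.30) and 2.56 (SE 0.30). Wfdc21 rose by 2.67 in WT (median 0.0952 CPM in WT tumors), and in KO tumors Wfdc17 rose by 4.12 and Camp, the cathelicidin gene, by 4.05, with Camp, which also stands in the neutrophil list, at a median of 0.0633 CPM in KO tumors. In all, 3 fell in both genotypes. The log2 fold changes in WT and KO were -3.38 and -3.74 for Reg3g, an antibacterial lectin, -2.66 and -2.35 for Defb1, a beta-defensin, and -1.87 and -2.02 for S100a7a.

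Over 27 cytokines and receptors that act upstream of such genes the median was 0.00 in WT and 0.09 in KO, with 6 higher and 6 lower in WT and 5 higher and 3 lower in KO. Cd14, a coreceptor for bacterial lipopolysaccharide, rose by 1.83 (SE 0.18) in WT and 1.45 (SE 0.18) in KO, Tlr3 by 1.03 and 1.00 and Il17re, a receptor subunit for interleukin 17C, by 0.99 and 1.37. Lifr, the receptor of leukemia inhibitory factor, fell by 2.64 (SE 0.27) in WT and fell by 2.13 (SE 0.27) in KO. Il1b fell by 2.65 and Osm fell by 2.47 in WT, both with medians under 1 CPM in every group, and were at -0.76 and -0.92 in KO (adjusted p = 0.641 and 0.564, edgeR).

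Of 21 transcription factors and feedback inhibitors, 5 rose and 2 fell in WT and 5 rose and 1 fell in KO, with medians of -0.03 and 0.25, beside the 9.53% (WT) and 5.44% (KO) of all genes that fell and the 6.21% and 5.16% that rose. Elf5, a factor of milk-producing alveolar cells, rose by 3.01 (SE 0.27) and 2.21 (SE 0.26), Ehf by 1.36 and 1.09, and Tnfaip3, an inhibitor of NF-kappaB, by 1.11 and 0.90. Spdef fell by 2.25 in WT and fell by 1.19 in KO, and Socs3, an inhibitor of STAT3, fell by 0.60 in WT. Of 14 receptors and iron genes, 4 rose and 3 fell in WT and 4 rose and 2 fell in KO. Hephl1, a ferroxidase related to Cp, rose by 4.87 (SE 0.77) and 4.48 (SE 0.66), Trf (transferrin) by 2.39 (SE 0.34) and 1.91 (SE 0.33) and Fth1, the ferritin heavy chain, by 1.20 and 0.81. Lrp1 fell by 2.44 (SE 0.24) in WT and fell by 1.96 (SE 0.24) in KO. Heph (hephaestin) stood at -1.98 and -2.02, both called, and Mmp9, whose protein forms a complex with that of Lcn2, fell by 2.06 in WT.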

How the data were processed

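Total RNA of cultured, sorted GFP+ mammary cells was depleted of rRNA and sequenced with a stranded protocol. Per the labels and the study's methods, the authors aligned reads with HISAT to GRCm38 with GENCODE M16, took out duplicate reads with Picard 1.128 and used HTSeq to count reads over genes. Its strand setting is not given in the sources used here. They deposited a table of raw read counts per gene and a table of normalized signal, the counts divided by DESeq2 size factors in R 3.6.2. No column holds their comparisons, and 0 columns belonged to no sample. In the normalized signal that the authors deposited, 100.0% of values gave back whole reads, to within 0.01 read.

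The count table was used here. Its 111 rows of spike-ins, reporters and transgenes (0.0778% of reads) were left out. Genes with at least 10 reads over the 33 libraries were tested with edgeR 4.0.16 (quasi-likelihood test, TMM scaling, prior count 0.125, limma 3.58.1) in R 4.3.3, with 1 coefficient per genotype, tissue and age. Each fit used all 33 libraries, which share 1 estimate of the spread, and the single WT tumor of week 12 entered no fold change, only the ranges and correlations over all tumors. WT and KO tumors were compared by stage, so their ages differ. The SE was obtained as the absolute log2 fold change over the root of the F value. CPM are counts per 1000000 reads of the TMM-scaled library. A library at 3 reads or fewer was set to 3 reads for a lower bound. Correlations used log2 of CPM plus 0.1, genes with a median of at least 10 reads, and two-sided permutation tests. The 2 farthest libraries were those farthest from the median of the gene, or of the gene named first in a pair unless stated. Python 3.11.15, numpy 2.4.6, scipy 1.17.1, pandas 2.3.3 and matplotlib 3.10.9 were used. The fit was tested on simulated counts.

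The 10 genes and all lists were chosen with earlier results of these data known. From a list, at most the 3 called genes of largest change in each direction were named, and for markers those that lead their list or are near 0. For likeness the 3 genes of highest r were named. Alternatives were DESeq2 1.42.0, its size factors in place of TMM, no filter on low counts, only the libraries compared, no WT tumor of week 12, the recovered reads (5676 genes called in WT tumors against glands and 3860 in KO), the rRNA share as covariate, a replicate block, and leaving out each library. Each library came from 1 mouse. No pair of replicates agreed within counting noise (lowest chi-square per degree of freedom 42.27).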

Additional observations from a re-analysis of the deposited data

Results flagged for a closer look

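Of 40 sets tested, each 1 gene in 1 genotype and tissue, 6 held a library whose gap to its nearest neighbor passed Dixon's criterion. Chance gives about 1 in 20 where values are normally distributed. CPM were taken without a log and over all ages, so that rate may not hold. All 6 were the highest of their set. Saa3 stood at 120 CPM in WT gland week 8 replicate 2, with the next of 8 glands at 19.8 CPM. Saa1 at 2.59 CPM and Saa3 at 4.80 CPM were both in KO gland week 10 replicate 1, with the next of 6 KO glands at 0.859 and 0.748 CPM, and the fibroblast marker sum of that gland, 128 CPM, was the highest of the KO glands. S100a8 was at 5.00 CPM in KO gland week 8 replicate 2 (next 3.36 CPM). S100a9 was at 0.498 CPM in WT gland week 12 replicate 1 (next 0.183 CPM). Pigr was at 38.6 CPM in KO tumor week 8 replicate 3, with the next of 9 KO tumors at 15.3 CPM.

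The single WT tumor of week 12 entered no fitted fold change, and it is 1 of the 10 WT tumors in the ranges and correlations of the report, so that it lay above all 8 WT glands for 8 of the 10 genes is already part of the count of tumors above glands. It held Lcn2 at 1943 CPM (highest WT gland 763), Saa1 at 41.5 CPM (0.812), Saa2 at 13.1 CPM (0.320) and S100a8 at 21.02 CPM (6.63). Ltf was at 68.3 CPM (67.3), Pigr at 21.5 CPM (0.178), Cp at 1470 CPM (785) and Wfdc18 at 1196 CPM (278). It has no replicate.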

How the results depend on the processing

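The 9 genes called in the mean comparisons of WT and of KO tumors with glands, and Wfdc18 between genotypes, were called under every alternative run on them. With no filter on low counts, 1 gene was called in the difference of the tumor effects in place of 0 (Saa3, adjusted p = 0.0034), 2 between WT and KO tumors in place of 1 (Pigr, adjusted p = 0.0991), 1 between WT tumors of weeks 10 and 6 in place of 0 (Cp, adjusted p = 0.0288) and 1 between KO tumors of weeks 12 and 8 in place of 0 (Ltf, adjusted p = 0.0157). Saa3 at WT week 6 (adjusted p = 0.0689) and Ltf at WT week 10 (adjusted p = 0.00312) and KO week 8 (adjusted p = 0.00229) were then called too. With DESeq2, 1 gene was called in the difference of the tumor effects (Saa3, adjusted p = 0.0331). With only the libraries compared, 0 of the 10 genes were called at KO week 12 in place of 9, with 0 of 22035 genes called in that fit. S100a8 at WT week 10 (adjusted p = 0.124) and Pigr at KO week 8 (adjusted p = 0.132) were no longer called, and Ltf at WT week 10 (adjusted p = 0.0245) and KO week 8 (adjusted p = 0.0115) was. The cause of these changes was not tested. Ltf at WT week 10 was called with DESeq2 (adjusted p = 0.0477) and at KO week 8 (adjusted p = 0.042). Leaving out 1 library, the counts ran from 5 to 8 at WT week 6, 8 to 9 at WT week 8, 6 to 8 at WT week 10, 2 to 8 at KO week 8, 5 to 9 at KO week 10, 7 to 9 at KO week 12 and 0 to 1 in the difference of the tumor effects. Each age has 2 glands per genotype.

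Of 2420 values of single genes under the alternatives, 98 changed sign, and 0 of these were called. Leaving out 1 library, S100a9 ran from -1.58 to 4.69 at WT week 8, from -0.45 to 2.90 at WT week 10, from -0.97 to 2.11 at KO week 12 and from -0.61 to 0.42 in the KO mean. Saa3 ran from -0.42 to 10.36 at WT week 8 and from -1.51 to 2.85 between WT and KO glands. Pigr ran from -1.83 to 1.125 between KO tumors of weeks 12 and 8, and Wfdc18 from -0.23 to 0.41 between WT tumors of weeks 10 and 6. Without the 2 WT glands of highest fibroblast sums, chosen after seeing the data, Saa3 was at 1.08 in the difference of the tumor effects, at -1.51 between WT and KO glands, at 7.62 at WT week 6 and at 10.36 at WT week 8. These 2 glands also held the most Saa3, so the direction of these moves was set by leaving them out. At WT week 6 that fit no longer called Ltf, Pigr or Wfdc18.

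Replicate numbers came from different mice. Of 27 same-numbered pairs of libraries, 3 had a correlation of deviations over 0.1 (range -0.73 to 0.56) and 9 correlated best with their own number, so the numbers were not taken as pairing. With a replicate block no call of the 10 genes changed, Wfdc18 was higher in WT tumors by 1.47 (adjusted p = 0.00106), and Wfdc18 between WT tumors of weeks 10 and 6 was at -0.027.

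Over all genes, the count of 51 in the difference of the tumor effects became 732 with no filter, 671 with DESeq2, 29 with only the libraries compared, 22 with the block and 6 without the 2 glands. Between WT and KO tumors 404 became 632, 655 and, with the rRNA share, 206. Between glands 331 became 722, 741, 67 with only the libraries compared, 52 with the rRNA share and 93 without the 2 glands. For WT tumors of weeks 10 and 6, 4 became 440, 253 and 0, and for KO tumors of weeks 12 and 8, 0 became 176, 125 and 1, in the order no filter, DESeq2 and only the libraries compared. At KO week 8 909 became 1613, 1695 and 1416 in that order. With only the libraries compared, 2240 became 995 at WT week 10 and 2233 became 0 at KO week 12. Without the 2 glands, 2139 became 540 at WT week 6 and 3358 became 2202 at WT week 8.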
